A study of Homo sapiens with 102 samples.

Results

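Position codes T030 to T050 mark 21 neighbouring synthetic alphoid units that together hold the main run of high CENP-A density in HAC 4-65, a human artificial chromosome (HAC) kept in HT1080, an established human fibrosarcoma cell line. The run was chosen by its CENP-A density in untreated HAC 4-65 cells, so that density is described here and not tested. Of 128 T codes in the list of codes, 75 were carried by HAC 4-65, that is, took a median of at least 0.1% of T reads over its 49 libraries. All 21 members passed this limit, which left 54 other carried T codes, and the members were 28% of the carried T codes. T088 (median share 0.156%) lay just inside the limit and T085 (0.0998%) just outside it, while the members ran from 0.508% (T050) to 1.17% (T047). T codes were read as CenU, units that can bind the DNA-binding centromere protein CENP-B, and L codes as NCU, whose CENP-B boxes are mutated.

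Antibodies against CENP-A and the histone marks H4K20me1, H4K8ac, H3K14ac, H3K4me2, H3K36me2 and H3K9me3, 7 in all, were used in each of 7 conditions. These were untreated cells, cells held with thymidine, cells held with colcemid, cells 3 h after release from colcemid, and cells given siControl, siKAT7 or siHJURP. All of these cells carry the same HAC, which is a single clone, and further clones, HAC 1-8, 4-2, 3-6 and 4-49, gave 1 CENP-A library of untreated cells each. Every group had 1 library made from 3 pooled ChIP reactions, so no spread between replicates can be given and no test was made. Intervals in brackets are exact binomial (Clopper-Pearson) 95% intervals and cover counting error only, because reads copied by PCR from the same molecule were counted separately.

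CENP-A replaces histone H3 in the nucleosomes of working centromeres, and HJURP is the chaperone that deposits it after mitosis. H4K20me1 is known on CENP-A nucleosomes, H4K8ac and H3K14ac are acetylations that the acetyltransferase KAT7 can place, H3K4me2 and H3K36me2 are known from centromeric chromatin between CENP-A nucleosomes, and H3K9me3 is the mark of heterochromatin. Thymidine holds cells at the start of DNA replication, colcemid holds them in mitosis, and cells released from colcemid enter G1, when CENP-A is loaded.

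A code is 23 bases of fixed sequence with 6 variable positions, 9, 10, 14, 15, 19 and 20 counted from the 5′ end, and T codes differ from each other only at these positions. The codes at both ends of the run, the code richest in CENP-A reads and the 3 codes that stood apart in H3K9me3 are shown 5′ to 3′ with the variable bases in capitals. T015 and L047 are added because each differs from T047 by 1 base.

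T030: ggggaaaaATcccCTtttCTggg

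T035: ggggaaaaAGcccAGtttAGggg

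T036: ggggaaaaAGcccACtttACggg

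T041: ggggaaaaAGcccGAtttGAggg

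T047: ggggaaaaAGcccCGtttCGggg

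T050: ggggaaaaACcccATtttATggg

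T015: ggggaaaaAAcccCGtttCGggg

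L047: gggcaaaaAGcccCGtttCGggg

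The change from T047 to T015 is G10A and that from T047 to its NCU partner L047 is G4C, with positions counted from the 5′ end and the base of T047 first. Each member had 5 codes at a distance of 1 base, its NCU partner of the same number among them. The members held 1 to 5 G or C among their variable bases. Over the 21 members this number had a Pearson r of -0.01 with CENP-A density and of 0.24 with the mean share of reads in the marks, given as descriptions over codes that share their libraries.

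The HAC 4-65 libraries held 1494 to 1212786 matched reads (median 203884). Under 10000 were the CENP-A libraries of thymidine (3071), siControl (1494) and siHJURP (6009) and the H3K4me2 library of siHJURP (5590), and in CENP-A of siControl T031 had 10 reads. In 7 libraries the members scattered against each other. There the SD over members of the log2 share, taken from each code's median over the 7 conditions, was 1.80 for H4K20me1 release, 2.20 for H4K8ac release, 1.97, 1.099 and 2.75 for H3K14ac colcemid, siKAT7 and siHJURP, and 1.05 and 3.25 for H3K4me2 colcemid and release. In the other 42 libraries it was 0.13 to 0.81. Results that rest on these libraries are marked as such.

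Because the codes and their copies are the same in every library of the line, the share of T reads that fell on the 21 members can be set side by side between antibodies. CENP-A put 34.0% (33.7 to 34.3) of T reads on them in untreated cells and 29.4% to 40.4% over the 7 conditions, with a median of 39.7%. H4K20me1 was next, with 32.9% (32.5 to 33.3) in untreated cells and 19.4% to 41.1% over the conditions. The acetylations were lower, H4K8ac at 18.5% to 27.8% and H3K14ac at 11.1% to 20.6%. H3K4me2 took 8.56% to 14.2%, H3K36me2 7.30% to 10.2% and H3K9me3 5.51% to 8.93%, with 7.66% (7.50 to 7.82) in untreated cells. Every CENP-A library thus stood above every library of the 5 marks other than H4K20me1, and the H3K9me3 range overlapped only those of H3K36me2 and H3K4me2. Without the 11 scattered or shallow libraries the medians were 39.8% for CENP-A, 30.6% for H4K20me1, 21.2% for H4K8ac, 18.1% for H3K14ac and 12.9% for H3K4me2, against 39.7%, 32.6%, 21.5%, 18.3% and 11.8% with them.

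Read share grows with the number of copies of a code, so CENP-A density was taken as log2 CENP-A reads minus the mean log2 reads of the 6 marks in the same condition, with the median carried code set to 0. In untreated cells it had a median of 1.28 over the members against -0.96 over the 54 other carried codes, a log2 difference of 2.24, or 4.73-fold. Densities at least 1.5-fold above the carried median were found in 20 members and in 40% of all carried T codes, a count fixed by the choice of members. The highest members were T036 (2.01), T039 (1.93) and T043 (1.83), and the lowest were T047 (0.24), T050 (0.95) and T030 (0.96). Just outside, T029 had 0.68 and T051 0.46, while T052 had -2.81. The other dense stretch of the line, T065 to T083 with 15 carried codes, had a median of 0.80, and T025 to T029, on the left side, 0.27. T065 to T083 was mixed. Its codes T071 and T073 to T076 had 1.41 to 2.00 and were the 5 other codes above the member median. T065 and T080 to T083 had -1.89 to -0.71.

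The other 6 conditions are of the same clone, and the members were chosen with earlier results of these data known, so their values are descriptions too. There the difference from the other carried codes was 2.37 in thymidine, 3.26 in colcemid, 2.07 in release, 2.02 in siControl, 2.59 in siKAT7 and 1.76 in siHJURP. All 21 members had a density above 0 in thymidine, colcemid, siControl and siKAT7, 19 in release and 20 in siHJURP. Because 0 is the median carried code, this is not particular to the run. T028, T029 and T051 beside it, and T069 to T071 and T073 to T078 within T065 to T083, were above 0 in 7 of 7 conditions. Against the median of all carried codes of T065 to T083, its CENP-A poor codes included, the members were higher by 0.48 in untreated cells. The difference was 0.59, 1.40 and 1.20 in thymidine, colcemid and release, and 0.44, 0.55 and 0.71 in siControl, siKAT7 and siHJURP. It depends on where that stretch is cut, and its densest codes lay above the member median in untreated cells. The colcemid and release values include scattered H3K14ac, H3K4me2, H4K8ac or H4K20me1 libraries among the marks, and the siKAT7 and siHJURP values a scattered H3K14ac library. CENP-A itself was shallow in thymidine, siControl and siHJURP.

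The order of the members by density was only weakly shared between conditions. Pearson's r between untreated cells and another condition was 0.18 to 0.52 over the 21 members, and -0.21 to 0.41 over 18 members without T035, T041 and T047. These are descriptions over codes that share their libraries. Each of the other conditions had a shallow CENP-A library or a scattered mark library. A changed order therefore cannot be told apart from counting error and scatter. At the ends of the order 2 codes recurred. T047 was among the 3 lowest members in 7 of 7 conditions and the lowest in 5, with densities of 0.24 in untreated cells, 0.73, 0.38 and -0.59 in thymidine, colcemid and release, and 0.39, 1.11 and -0.27 in siControl, siKAT7 and siHJURP. T036 took the highest share of CENP-A reads of all members in 7 of 7 conditions, from 2.33% (1.94 to 2.77) in siHJURP to 3.54% (3.33 to 3.76) in release. Its density, which also counts its reads in the marks, was among the 3 highest in 2 of 7 conditions. By position, the 7 codes T030 to T036 had a median untreated density of 1.40, T037 to T043 one of 1.36 and T044 to T050 one of 1.20, which differ by less than T036 and T030 within the first stretch do.

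For a mark, the level of a code compared its log2 reads in untreated cells with its mean over the remaining 5 marks in the siControl libraries, again with the median carried code at 0. The untreated mark libraries also enter CENP-A density, with a negative sign, so the levels are not fully independent of the rule. H4K20me1 was highest in the run, with a median of 1.58 against -0.70 over the other carried codes, a difference of 2.28. It was at least 1.5-fold above the carried median in 21 of 21 members and in 45.3% of all carried T codes. T037 had the highest level (1.96) and T041 the lowest (0.73), and 43 of 54 other codes lay below T041. T065 to T083 had a median of 0.92. The H4K20me1 difference from the other codes kept its sign but was much smaller without the correction by other marks.

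The acetylations were raised less evenly. H4K8ac differed from the other codes by 0.90, with levels from -0.61 (T030) to 1.40 (T039), and 8 members against 20% of carried codes were 1.5-fold above the carried median. H3K14ac differed by 0.53, with levels from -0.80 (T038) to 1.77 (T048), and 7 members against 20% were past the limit. Without the correction by other marks both differences changed sign, to -0.21 for H4K8ac and -0.35 for H3K14ac. H3K4me2 differed by -0.05, from -1.38 (T049) to 1.44 (T031), and 1 member against 18.7% of carried codes was 1.5-fold above the carried median. Its difference was more negative without that correction.

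H3K36me2 and H3K9me3 were low in the run. The H3K36me2 difference was -1.16, and levels ran from -1.74 (T047) to -0.41 (T030), with 15 members and 30.7% of carried codes at least 1.5-fold below the carried median. The H3K9me3 difference was -1.60, and 18 of 21 members and 37.3% of carried codes were past the same limit. T065 to T083 was low too, with medians of -0.40 for H3K36me2 and -0.62 for H3K9me3. Over all other carried codes these were 0.40 and 0.21. T050 had the lowest H3K9me3 level, -2.42. The 18 members past the limit lay between -2.42 and -1.01 (T048), and T035 (0.35), T041 (0.20) and T047 (0.66) lay above the carried median, so these 3 codes did not overlap the rest. Across the members, CENP-A density had an r of 0.46 with the H4K8ac level and between -0.24 and 0.25 with the other 5 marks, described over 21 codes of the same libraries. Without T035, T041 and T047 it was 0.51 with H4K8ac over 18 codes, and the values for H3K9me3 and H3K36me2 changed sign, from -0.24 to 0.24 and from 0.20 to -0.27.

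T035, T041 and T047 took 28.4% to 43.5% of all H3K9me3 reads of the run but 11.7% to 18.3% of its CENP-A reads. The H3K9me3 share of T047 was 1.32% (1.25 to 1.39) in untreated cells, 0.73% (0.66 to 0.81) in thymidine and 0.74% (0.69 to 0.79) in colcemid. It was 1.67% (1.59 to 1.75) in release, 1.13% (1.06 to 1.19) in siControl, 0.58% (0.54 to 0.63) in siKAT7 and 0.55% (0.52 to 0.58) in siHJURP. In each of the 7 conditions T047 was above all of the other 18 members, by 2.39-fold to 5.82-fold of their median. T041 was above them in 7 of 7 as well, by 3.45-fold to 4.90-fold, and T035 in 6 of 7, by 1.90-fold to 4.47-fold, with siHJURP the exception.

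CENP-A did not set T047 apart in the same way. Its CENP-A share was 1.24% (1.19 to 1.31) in untreated cells and 1.24% to 1.70% over the conditions, 0.73-fold to 0.93-fold of the median of the 18 members and below it in all 7 conditions. T041 had 0.73-fold to 1.32-fold of that median and T035 0.90-fold to 2.09-fold. T047 also had the highest mean share in the 42 mark libraries of all 21 members, 0.53 on the log2 scale above the median carried code, followed by T041 (0.28), T036 (0.21) and T035 (-0.08), against a median of -0.39 over the members. H4K20me1 was not low on T047, with a level of 1.54 and the highest share of all members in untreated cells, 2.47% (2.34 to 2.60). The folds of these 3 codes can hold more than 1 copy of a code, in the run or elsewhere in the HAC. The number of copies and the chromatin of each copy cannot be told apart in read shares, and no input DNA library was used here.

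Codes that differ by 1 base set a limit on these values. T015, carried outside the run, had 1505 H3K9me3 reads in untreated cells beside 1374 for T047, and 839 CENP-A reads beside 1650. L047 had 7697 H3K9me3 reads. NCU partners of T035, T041 and T047 had 7697 to 12631 H3K9me3 reads, within the 3278 to 13646 of the partners of all members. The part of misread codes in the H3K9me3 reads of the 3 codes was not tested.

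The codes next to the 2 ends of the run differed. On the right, T050 had a CENP-A share 0.55-fold to 1.25-fold of the median of the 18 members over the 7 conditions and an H3K9me3 share 0.56-fold to 1.60-fold of it. T051 kept CENP-A, at 0.83-fold to 1.64-fold, but had 4.23-fold to 5.76-fold of the H3K9me3 share in every condition. T052 had at most 0.041-fold of the CENP-A share and 3.26-fold to 4.72-fold of the H3K9me3 share. In read shares, H3K9me3 thus stepped up between T050 and T051 and CENP-A stepped down between T051 and T052 in all 7 conditions. These shares are not corrected for copies, and T051 also had 1.43-fold to 2.05-fold of the H3K36me2 share. As for T035, T041 and T047, the number of copies of T051 and the chromatin of each copy cannot be told apart. On the left there was no such step in H3K9me3 between T030 and T028. T029 had 0.65-fold to 0.93-fold of the CENP-A share and 0.63-fold to 1.93-fold of the H3K9me3 share, and T028 had 0.38-fold to 0.80-fold and 0.79-fold to 1.49-fold. Further out, T027, T026 and T025 had 634, 588 and 645 H3K9me3 reads in untreated cells, beside 296 for T028. A rise in H3K9me3 thus also lay on the left, from T028 to T027. The median untreated H3K9me3 level was 0.23 over T025 to T029 and -1.39 over the members. Neighbours by number are neighbours in the DNA that was put into the cells, and their order in the HAC itself was not analysed here.

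The cell cycle comparisons asked how the run changed between thymidine, colcemid and release. Change was the log2 ratio of a code's reads over the NCU reads of its library, and a member was said to rise or fall past 1.5-fold. The recovery of DNA measured by qPCR in the study does not enter these ratios. They place a code against NCU reads of the same library and give no amount of CENP-A or of a mark, and a change of the NCU reads themselves cannot be told apart from a change of the members. From thymidine to colcemid H4K20me1 fell in 21 of 21 members and in 86.7% of carried codes, with a median of -3.95 over members and -1.88 over the other codes, a difference of -2.07. T031 had the largest fall, -4.68 (-4.86 to -4.51), from 2.35% to 0.58% of T reads. T047 had the smallest change, -2.65 (-2.78 to -2.52), and its share was 1.80% before and 1.81% after. In summed reads the difference from the other codes was -1.52 (-1.56 to -1.48). With all T reads as the reference, which leaves only the shift among CenU codes, the median member change was -1.29. The share of H4K20me1 reads on the run was 41.1% (40.6 to 41.5) in thymidine and 19.4% (19.1 to 19.8) in colcemid.

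CENP-A had a median change of -0.90 over the same step and fell in 17 members and in 65.3% of carried codes, but the difference from the other codes was -0.12 and the change against all T reads was -0.002. The thymidine library, which had at least 37 reads per member, held 40.4% (38.5 to 42.4) of its T reads on the run and the colcemid library 40.1% (39.5 to 40.6), intervals that overlap. Against all T reads 3 members in place of 17 fell in CENP-A, and 2 in place of 15 in H3K36me2. H4K8ac fell in 16 members and in 49.3% of carried codes, with a median of -1.05 and a difference of -0.67, from T032 (-2.07) to T033 (0.12) where both libraries gave 100 reads or more. H3K36me2 fell in 15 members and in 33.3% of carried codes, with a median of -0.70 and a difference of -0.25. H3K9me3 had a median of -0.13 and a difference of 0.04, and 1 member, T045 (-0.85), and 5.33% of carried codes fell, while T050 had 0.51 (0.23 to 0.80). H3K14ac (median -1.94, 18 members and 60% of carried codes) and H3K4me2 (-0.95, 13 members and 29.3%) also fell, but rest on scattered colcemid libraries in which members ran from -6.27 to 1.42 and from -4.34 to 0.17.

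From colcemid to release the CENP-A change had a median of 0.28, a difference from the other codes of -0.01, and 6 members and 29.3% of carried codes rose. T046 rose most, by 1.08 (0.92 to 1.23), from 1.68% to 2.68% of T reads, and T044 changed by -0.55 (-0.78 to -0.33), from 1.57% to 0.81%. The share of CENP-A reads on the run was 40.1% and 39.7%. H4K20me1 rose in 18 members and in 66.7% of carried codes, with a median of 3.14. Its release library was scattered, with changes from -2.17 (T042) to 5.44 (T050), and the sum of the run went from 19.4% back to 35.4% (34.5 to 36.4) of T reads. H3K36me2 rose in 11 members and in 37.3% of carried codes, with a median of 0.67 and a difference of 0.21, from -0.06 in T036 to 1.37 in T030 among codes with 100 reads.

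H3K9me3 changed in both directions within the run over the same step. Its median was -0.07 and its difference from the other codes 0.32. It fell in 7 members and in 33.3% of carried codes, which is no larger a share in the run than among all carried codes. T047 rose most, by 0.85 (0.73 to 0.98), and T038 had the largest fall among codes with 100 reads, -1.54 (-1.83 to -1.27). H4K8ac (17 members, 58.7% of carried codes, median 1.55), H3K14ac (12, 30.7%, 0.70) and H3K4me2 (12, 44%, 0.96) also rose, each resting on a scattered library. Among codes with 100 reads in both libraries, the highest and lowest changes were in T048 (3.44) and T042 (0.64) for H4K8ac, T039 (1.17) and T047 (-1.25) for H3K14ac, and T043 (3.65) and T047 (0.96) for H3K4me2.

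The siRNA comparisons asked what loss of KAT7 or of HJURP did to the run, both against the same siControl libraries. No library of KAT7 or HJURP mRNA or protein was analysed here. As a measure of the distance between cells not depleted of either, the difference of members from other codes between untreated and siControl cells was -0.42 for CENP-A, -0.20 for H3K9me3, 0.15 for H4K8ac, -0.10 for H3K14ac, -0.09 for H4K20me1, -0.02 for H3K36me2 and 0.00 for H3K4me2. CENP-A of siControl had only 442 reads on the 21 members.

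After siKAT7, and again only relative to NCU reads, H4K20me1 fell in 20 members and in 74.7% of carried codes, with a median of -1.35 and a difference from the other codes of -0.39. T048 had the largest fall, -2.87 (-3.06 to -2.69), from 1.45% to 0.42% of T reads. T047 was the exception with -0.31 (-0.39 to -0.22), and its share went from 1.97% to 3.39%, the highest of the members. H4K8ac rose relative to NCU reads in 19 members and in 49.3% of carried codes, with a median of 0.94 and a difference of 0.56, from 0.30 in T039 to 1.33 in T030. H3K36me2 rose in 17 members and in 36% of carried codes (median 0.78, difference 0.46). T048 rose most, by 1.73 (1.45 to 1.99). T036 was lowest, at 0.48, among the 6 members with 100 reads in both libraries, and T044 was lowest of all 21, at 0.16. H3K4me2 rose in 11 members and in 32% of carried codes (0.67, difference 0.52). These differences exceeded the distance between untreated and siControl cells for the same antibody, which rests on 1 pair of libraries each. For H3K4me2 the siControl library had 840 reads on the members. There the distance was -0.22 (-0.32 to -0.11) in summed reads, beside a siKAT7 difference of 0.50 (0.40 to 0.61). Against all T reads the counts were 4 for H4K20me1, 6 for H4K8ac and 8 for H3K36me2.

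H3K9me3 rose in 20 of 21 members after siKAT7, with a median of 1.16, but also in 94.7% of carried codes, and the difference from the other codes was 0.15. T050 rose most, by 1.57 (1.30 to 1.85), and T047 changed by 0.01 (-0.13 to 0.15), the lowest value of the 21. With all T reads as the reference the median member change was 0.204 and 1 member rose. CENP-A rose relative to NCU reads in 13 members and in 38.7% of carried codes (median 0.76, difference 0.44), and its share on the run was 34.97% (32.3 to 37.7) in siControl and 39.8% (39.5 to 40.1) in siKAT7. In summed reads the difference from the other codes was 0.30 (0.14 to 0.47), beside 0.05 (-0.12 to 0.21) from untreated to siControl cells, while over single codes, with few siControl reads each, these were 0.44 and -0.42. H3K14ac rose in 6 members and in 26.7% of carried codes, with a median of 0.25 in a scattered library, and among codes with 100 reads T035 was highest (1.21) and T049 lowest (-0.77).

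After siHJURP the CENP-A share of the run was the lowest of the 7 conditions, 29.4% (28.2 to 30.7) against 34.97% (32.3 to 37.7) in siControl and 34.0% (33.7 to 34.3) in untreated cells. Per code, CENP-A had a median change of 0.14 and a difference from the other codes of -0.35, or -0.36 (-0.54 to -0.17) in summed reads, and 6 members and 40% of carried codes rose. Both libraries were shallow. Relative to NCU reads H3K36me2 rose in 17 members and in 60% of carried codes (median 0.702, difference 0.09), from 0.35 in T036 to 1.26 in T037. H4K20me1 rose in 11 members and in 60% of carried codes (median 0.67, difference -0.13), and members ran from -2.69 (-2.91 to -2.49) in T042 to 1.87 (1.77 to 1.96) in T038. Against all T reads 1 member rose in H3K36me2 and 1 in H4K20me1.

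H3K9me3 rose in 19 members and in 88% of carried codes after siHJURP, with a median of 1.05 and a difference of -0.11. T045 rose most, by 2.01 (1.77 to 2.27), and T047 was again the lowest member with 0.09 (-0.02 to 0.21). With all T reads as the reference the median member change was -0.08 and 2 members rose, and the share of H3K9me3 reads on the run was 5.51% against 6.24% in siControl, so the rise was not larger on the run than on the other CenU codes. H4K8ac rose in 6 members and in 32% of carried codes (median 0.23, difference -0.06), from -1.94 in T032 to 1.49 in T035. H3K4me2 rose in 6 members and in 26.7% of carried codes in a shallow library (median 0.17). H3K14ac fell in 14 members and in 62.7% of carried codes (median -3.38) in the library of scatter 2.75, where T031 (2.71) and T048 (-2.55) were the extremes among codes with 100 reads, and its difference of -0.61 was 0.22 in summed reads.

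The same codes were followed in CENP-A of the other lines. HAC 1-8, 4-2, 3-6 and 4-49 had 1 CENP-A library each. In these lines a code with few reads may be absent from the line or poor in CENP-A, and these cannot be told apart in the libraries used here. The study estimated the copies of each CenU code in its HAC lines from genomic DNA, which was not used here. In the study's map of HAC 1-20 all CenU codes are numbered above this run. Reads of HAC 1-20 on the 21 codes therefore do not describe CENP-A on them. HAC 4-49 had 41.4% (41.3 to 41.5) of CENP-A T reads on the 21 codes, from 0.85% in T038 to 3.80% in T036. HAC 3-6 had 48.3% (48.2 to 48.4) on T030 to T045 and 0.15% (0.14 to 0.15) on T046 to T050. There T036 was again the richest, with 5.44% (5.40 to 5.49), and T050 the lowest, with 0.015%. HAC 4-2 had 34.0% (33.4 to 34.7) on T030 to T045 and 1.05% (0.91 to 1.20) on T046 to T050, where T048 had 0.44% and T049 0.34%. T033 was its richest member, with 4.03% (3.76 to 4.31), then T036 with 3.65% (3.39 to 3.92), intervals that overlap, and T047 its lowest, with 0.08%. HAC 1-8 had 1.38% (1.11 to 1.68) on the 21 codes, with T042 highest (0.15%) and T048 at 0 of 6759 T reads, which by a limit of 3 reads allows a share of up to 0.0444%, and in HAC 1-20 the 21 codes had 0.36% (0.31 to 0.42).

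Over T030 to T045, 16 codes with over 0.1% of CENP-A T reads in each of HAC 4-65, 4-49, 3-6 and 4-2, log2 CENP-A shares in HAC 4-65 had a Pearson r of 0.84 with HAC 4-49, 0.71 with HAC 3-6 and 0.66 with HAC 4-2 (Spearman 0.89, 0.79 and 0.65). They had an r of 0.36 with the mean share in the marks of HAC 4-65. These are descriptions over codes with 1 library a line, where copy number, amplification of the code and CENP-A all enter and were not told apart. T047 had 1.74% (1.71 to 1.77) in HAC 4-49, 13th of the 21 members, beside a median of 1.76%. In the 49 libraries of HAC 1-20 the 21 codes took a median of 0.22% of T reads and under 1% in 43 libraries, with 6.53% in H3K14ac of untreated cells and 5.11% in H3K14ac of release as the highest. The study's map of HAC 1-20 does not show these codes, so the reads are not taken as their chromatin. The origin of these reads was not tested.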

How the data were processed

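The deposited values are raw counts of reads per position code, which the authors made by trimming with cutadapt 4.0, aligning them to the code sequences with Bowtie and counting with SAMtools, per the labels and methods. Reads that matched no code were 6.39% to 12.7% of reads in HAC 4-65 and were left out.

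The members and lists of codes were chosen with earlier results of these data known. Code sequences were read from the study's list of 128 CenU and 96 NCU codes. That T stands for CenU and L for NCU is inferred. A value of 0.5 was added to reads before logs. With 1 library per group and 102 libraries in all, neither a test nor a p-value was computed. Medians over codes were compared with other carried codes, and a fold of 1.5 (log2 0.585) stood in for a call. Intervals of single-code changes are conditional binomial, with NCU reads held fixed, and that of a summed difference uses the Poisson error of 4 sums. T035, T041 and T047 were first set apart because the study's drawn map of the HAC does not mark them as single copy, with their values known. They are also the 3 members whose untreated H3K9me3 level lay above the carried median. Recovery by qPCR was not used.

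Codes were named by a rule: the ends of the run and their neighbours, T035, T041 and T047, the 3 highest and 3 lowest densities, the highest and lowest level per mark, the largest rise and fall among members with at least 100 reads in both libraries, and the richest and poorest member per other line. T015, T028, T052 and L047 were named after their values were seen. So were single codes of T065 to T083, the codes at the carried limit and those at the ends of scattered ranges. The alternatives were the carried limit, the added value, the copy proxy, the reference reads, summed reads and leaving out codes. The scripts were tested on simulated data. Computation used Python 3.11.15, numpy 2.4.6, pandas 2.3.3 and scipy 1.17.1.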

Additional observations from a re-analysis of the deposited data

How the results depend on the processing

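No paired analysis was possible because every group has 1 library and the labels give no replicate numbers. For the same reason no library could be left out within a group. A value was held to have moved when it left the 95% order-statistic interval of the median over members, or for single shares the binomial interval. That interval runs over codes that share their libraries, so it is a yardstick of their spread and not an error. It is wide where members scatter, as in H3K4me2 from colcemid to release (-8.20 to 6.84), so few values can leave it there. Of 252 alternative values of the member change minus the other codes, 246 stayed within the interval, among them 42 with all T reads as the reference, where the shift is common to all codes and cancels. The density difference of 2.24 became 1.16 with no copy proxy, 1.60 in summed reads and 2.80 without T065 to T083 among the other codes, an alternative chosen after seeing the data. The density of T047 was 0.56 and 0.12 with the carried limit at 0.02% and 0.2% and -0.018 with the proxy from 42 mark libraries. With no proxy the level differences were 0.47 for H4K20me1, -0.21 for H4K8ac (reversed), -0.35 for H3K14ac (from 0.53, so its sign changed too), -0.63 for H3K4me2, -1.75 for H3K36me2 and -2.46 for H3K9me3. With the limit at 0.02% they were 2.02 for H4K20me1, -0.94 for H3K36me2 and -1.87 for H3K9me3. The proxy from untreated marks gave 1.92 for H4K20me1 and 0.74 for H4K8ac, and summed reads 1.93, 0.73 and, for H3K9me3, -1.18. The causes were not tested.

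From thymidine to colcemid the H4K20me1 difference was -1.52 in summed reads. For H3K14ac after siHJURP, the difference was -2.28 with the limit at 0.02% and 0.22 (reversed) in summed reads, where the member median became 0.20 (reversed). With all T reads as the reference, the median member change reversed to 0.027 for CENP-A from untreated to siControl, to -0.21 for H4K20me1 and -0.076 for H3K9me3 after siHJURP, and to -0.20 for H4K8ac from thymidine to release. That reference removes any shift shared by the CenU codes. Under it the number of members past 1.5-fold went from 17 to 3 for CENP-A, and from 15 to 2 for H3K36me2, from thymidine to colcemid. From colcemid to release it went from 6 to 3 for CENP-A, 18 to 11 for H4K20me1, 17 to 8 for H4K8ac and 11 to 7 for H3K36me2. After siKAT7 it went from 13 to 4 for CENP-A, 20 to 4 for H4K20me1, 19 to 6 for H4K8ac, 17 to 8 for H3K36me2 and 20 to 1 for H3K9me3. After siHJURP it went from 6 to 0 for CENP-A, 11 to 1 for H4K20me1, 17 to 1 for H3K36me2 and 19 to 2 for H3K9me3. In the other lines, the share of all matched reads was 1.098% for HAC 1-8, 28.3% for HAC 4-2, 45.8% for HAC 3-6 and 19.04% for HAC 4-49, and without T035, T041 and T047 the values were 29.7%, 40.8% and 34.7% of T reads in HAC 4-2, 3-6 and 4-49. Depth limits H3K4me2 of siHJURP, with 204 reads on the members, and CENP-A of siControl, thymidine and siHJURP, with 442, 1051 and 1565.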
